A study of Mus musculus with 16 samples.

Results

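The genes described are 8 markers of the choroid plexus, Ttr, Kl, Folr1, Otx2, Clic6, Aqp1, Enpp2 and Sostdc1, which were found by symbol in the table of all genes, 1 entry each among 36930 entries. They were followed in RNAseq of the cortex of 16 mouse pups at P7, 8 Avil-ChR2 and 8 ChR2-flfl, all on a C57BL6 background. In Avil-ChR2 pups, Cre recombinase under the advillin promoter removes a floxed stop cassette in front of channelrhodopsin-2 (ChR2) fused to td-Tomato in the Rosa26 locus, so that sensory neurons, mainly IB4-binding nociceptors, carry the light-gated channel. The ChR2-flfl controls were Cre-negative litter mates that carry the same floxed ChR2 allele, and the mothers were Cre-negative. As a model of early-life pain, both groups had spent 1 h of each day from P1 to P5 under blue light, and both hold males and females. The authors supposed that light sensitivity in the first week lay mostly in peripheral nociceptors. The tissue sequenced is brain cortex, and recombination in it was not examined here. Which pups shared a litter was not known here, so P-values measure the spread between these pups.

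The choroid plexus is a folded sheet of epithelium that hangs into the brain ventricles and secretes the cerebrospinal fluid. It is not part of the cortex, and cortical samples can hold its RNA when pieces of it are taken along at dissection. Ttr encodes transthyretin, the carrier of thyroid hormone and retinol in the cerebrospinal fluid, and is among the most abundant RNAs of this epithelium. Folr1 encodes the folate receptor that moves folate into the cerebrospinal fluid, and Otx2 encodes a homeodomain transcription factor needed for the epithelium to form. Kl encodes klotho, the co-receptor of fibroblast growth factor 23, Clic6 a chloride intracellular channel, Aqp1 a water channel and Sostdc1 a secreted inhibitor of Wnt and BMP signalling. Enpp2 encodes autotaxin, the secreted enzyme that makes lysophosphatidic acid. Several of them are also used by other cells of the brain, Enpp2 by oligodendrocytes among others.

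Depth was even, with 47791532 to 48711134 reads assigned to genes in 15 pups and 30549126 in ChR2-flfl replicate 3. Values are TMM-normalized CPM, reads of a gene scaled to a common library size, and a single read was worth 0.0204 to 0.0209 CPM, or 0.0323 CPM in ChR2-flfl replicate 3. The genotype labels fitted the Avil gene, which lay between 0.825 and 1.46 CPM in ChR2-flfl pups and between 37.3 and 46.4 CPM in Avil-ChR2 pups. The Y-linked genes Ddx3y, Eif2s3y, Kdm5d and Uty fitted the labelled sex in every pup but Avil-ChR2 replicate 4, which is labelled female and had 54.7 CPM of the Y-linked Ddx3y, within the range of 50.7 to 73.4 CPM of the pups labelled male. The tissue label fitted the markers of cortical projection neurons, of which all 12 listed were read in each pup. Their summed level was 3446 to 3810 CPM in Avil-ChR2 and 3504 to 4029 CPM in ChR2-flfl pups.

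The most specific markers of the epithelium were at or near 0. Ttr was read in 14 of 16 pups, with 169 reads in all, a median of 5.5 reads a pup and 3 reads or fewer in 5 pups. In ChR2-flfl pups its level had a lowest value of 0, a median of 0.062 and a highest value of 0.351 CPM. In Avil-ChR2 pups these were 0.062, 0.198 and 1.19 CPM. The ranges overlapped, and 2 of 8 Avil-ChR2 pups lay above the highest ChR2-flfl pup. Avil-ChR2 replicate 2 stood apart from all others with 58 reads (95% exact Poisson interval 44.0 to 75.0, counting error only), 34.3% of all Ttr reads of the series. No Ttr read was found in ChR2-flfl replicates 7 and 8, where the 95% exact Poisson interval of 0 reads goes up to 0.0766 and 0.0763 CPM. The value of 3 reads was 0.0623 and 0.0620 CPM in these pups. The Ttr gene lies at 20665250 to 20674326 of chromosome 18 (GRCm38, forward strand) and overlaps the entry Gm16090 of the opposite strand, which had at most 0.392 CPM in any pup. Gm16090 had a mean of 0.160 CPM over the 14 pups with a value, beside 0.219 CPM for Ttr over 16 pups. Its log2 genotype difference was -0.47 (limma adjusted p = 0.96). Reads of overlapping genes stand under 1 entry, so low Ttr values, 0 among them, could miss reads listed under Gm16090, which was not tested.

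Folr1 was read in 9 of 16 pups and never with more than 5 reads. It was listed in 3 ChR2-flfl pups, at 0.041, 0.041 and 0.104 CPM, and in 6 Avil-ChR2 pups, at 0.021 to 0.103 CPM. Otx2 had 13 reads in all. They came from 7 pups, of which ChR2-flfl replicate 1 held 5 reads (0.103 CPM) and the others 1 or 2. Both genes overlapped between the groups and fell short of the filter on low values, so that they were left out of the fit across all genes. Their levels were under or close to the value of 3 reads nearly everywhere. Folr1 was above 3 reads in 3 pups and Otx2 in 1 pup. Folr1 lies on chromosome 7 (101858331 to 101870788, reverse strand) and Otx2 on chromosome 14 (48657452 to 48667644, reverse strand).

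**Figure D1:**
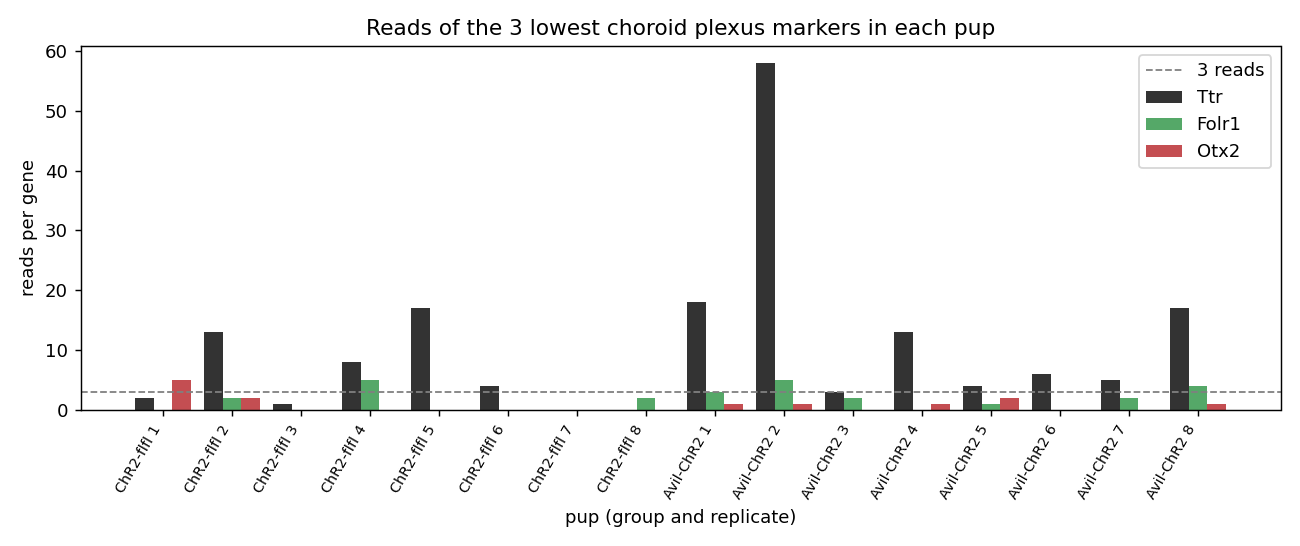
Reads of Ttr, Folr1 and Otx2 in each of the 16 pups, as bars from 0, with a dashed line at 3 reads. Avil-ChR2 replicate 2 holds 58 reads of Ttr, all other bars are at 18 reads or fewer, and most bars of Folr1 and Otx2 lie under the line.

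The other 5 genes were read in every pup. Clic6, on chromosome 16 (92498147 to 92541241, forward strand), was the lowest of them, with 17 to 56 reads. Its lowest, median and highest levels were 0.374, 0.591 and 0.744 CPM in ChR2-flfl pups and 0.352, 0.750 and 1.17 CPM in Avil-ChR2 pups. The groups overlapped, although 4 of 8 Avil-ChR2 pups lay above the highest ChR2-flfl pup. Kl, on chromosome 5 (150952607 to 150993817, forward strand), had values of 0.840, 1.22 and 1.53 CPM in ChR2-flfl and of 0.994, 1.17 and 1.32 CPM in Avil-ChR2 pups. All Avil-ChR2 values of Kl fell within the ChR2-flfl range. Sostdc1, on chromosome 12 (36314169 to 36318452, forward strand), ran from 1.84 over 2.13 to 2.59 CPM in ChR2-flfl and from 1.56 over 2.45 to 2.57 CPM in Avil-ChR2 pups. Its lowest value was that of Avil-ChR2 replicate 2, the pup with the highest Ttr.

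Aqp1, on chromosome 6 (55336299 to 55348555, forward strand), had a lowest value of 1.40, a median of 2.70 and a highest value of 3.84 CPM in ChR2-flfl pups. The corresponding values in Avil-ChR2 pups were 1.78, 2.97 and 3.97 CPM. The groups spanned nearly the same range. Enpp2, on chromosome 15 (54838679 to 54952887, reverse strand), stood far above the other members. It had 66.3, 92.2 and 101.3 CPM as lowest, median and highest level in ChR2-flfl and 73.8, 94.9 and 110.7 CPM in Avil-ChR2 pups. Its lowest values came from replicate 1 of each group.

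Per kilobase of the longest transcript, the mean level over the 16 pups was highest for Enpp2 (29.5 CPM per kb), followed by Sostdc1 (1.24), Aqp1 (1.03), Kl (0.233), Ttr (0.184), Clic6 (0.174), Folr1 (0.025) and Otx2 (0.006). Among these neighbours, Sostdc1 and Aqp1, and Kl, Ttr and Clic6, were close to each other relative to the SDs over pups, which were 13.3% of the mean for Sostdc1, 28.3% for Aqp1, 15.4% for Kl, 133% for Ttr and 32.9% for Clic6. On the log2 CPM scale, the mean level of Ttr was higher than that of 10.4% of the 21183 genes tested, and that of Enpp2 higher than that of 87.2%.

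The spread over pups separated the members in a different order. The SD of log2 CPM was 1.56 for Ttr, larger than that of 99.8% of the genes tested. It was 0.47 for Clic6 and 0.44 for Aqp1, 0.22 for Kl and 0.20 for Sostdc1 and 0.18 for Enpp2, compared with a median of 0.14 for all genes tested. Counting alone would give a coefficient of variation of 30.8% for Ttr, 13.3% for Kl, 9.77% for Sostdc1, 18.0% for Clic6, 8.85% for Aqp1 and 1.52% for Enpp2. Kl (15.4%) and Sostdc1 (13.3%) lay nearest to that counting error, whereas Aqp1 (28.3%), Enpp2 (12.02%) and Ttr (133%) varied clearly more.

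**Figure D2:**
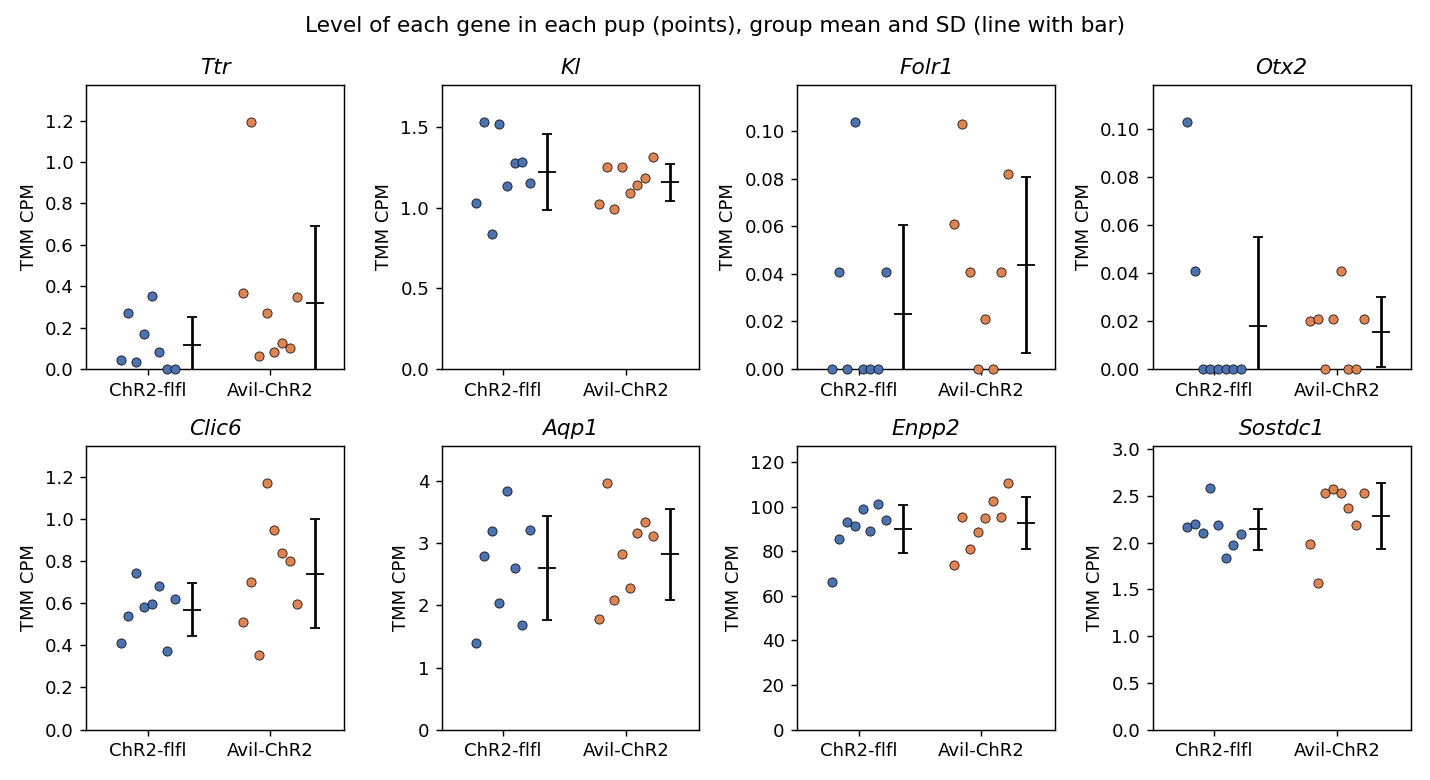
TMM CPM of the 8 genes, 1 panel a gene with its own axis from 0, 1 point a pup (8 per genotype), with the group mean and SD beside the points. All 8 genes overlap between genotypes, and the levels run from at most 0.104 CPM for Folr1 to 110.7 CPM for Enpp2.

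The comparison of genotypes asked whether any marker differed between Avil-ChR2 and ChR2-flfl pups. No member differed by limma with Benjamini-Hochberg adjustment over 21183 genes, 0 of the 6 tested against a background of 0.00944% of all genes, and voom, limma's model for counts, also called 0 members. At an unadjusted p under 0.05, 1 of the 6 was called, Ttr, by limma and by voom, beside 5.41% of all genes tested in either direction and 1.95% in the direction of Ttr. The groups overlapped for all 8 members, and did not overlap for 0.0283% of the genes tested. Because the tissue is a bulk sample, fewer cells of a type and less RNA per cell cannot be told apart.

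Ttr was higher in Avil-ChR2 pups by 1.33 on the log2 scale (SE 0.63, limma, adjusted p = 0.91), with means of 0.319 ± 0.374 CPM in Avil-ChR2 and 0.118 ± 0.132 CPM in ChR2-flfl pups (SD, n = 8 each). An exact permutation test (2-sided) gave p = 0.088, and the ChR2-flfl mean was exceeded by 5 of 8 Avil-ChR2 pups. The call at the unadjusted threshold was lost when any 1 of 9 pups was left out (ChR2-flfl replicates 1, 3, 6, 7 and 8 or Avil-ChR2 replicates 1, 2, 4 and 8), and the adjusted p ranged from 0.59 to 1.00 over all alternatives. Without Avil-ChR2 replicate 2 the difference was 0.96, and on the log2(CPM + 1) scale, which gives little weight to levels of a few reads, it was 0.21. Within pups 26 to 33 it was 1.74 (exact permutation test, p = 0.14) and within pups 35 to 42 it was 0.92 (p = 0.40, exact), where 4 against 4 pups cannot go below 0.029. The size on the log2 scale depends on the value of -5 that was given to the pups without reads.

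Of the remaining members, Clic6 showed the largest difference, 0.33 higher in Avil-ChR2 pups on the log2 scale (SE 0.22, limma adjusted p = 0.95). It exceeded the mean of the controls in 6 of 8 pups. Without Avil-ChR2 replicate 3 it was 0.47, and it was 0.14 on the log2(CPM + 1) scale. The differences of Aqp1 (0.15, SE 0.20), Sostdc1 (0.08, SE 0.11), Enpp2 (0.05, SE 0.08) and Kl (-0.06, SE 0.12) were smaller than their SE. The median difference of the 6 tested members was 0.11, beside 0.00 for all genes tested. For Folr1 and Otx2, the exact permutation test of the log2 values gave p = 0.41 and p = 0.73. Differences of this size could not be told from the spread between pups.

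**Figure D3:**
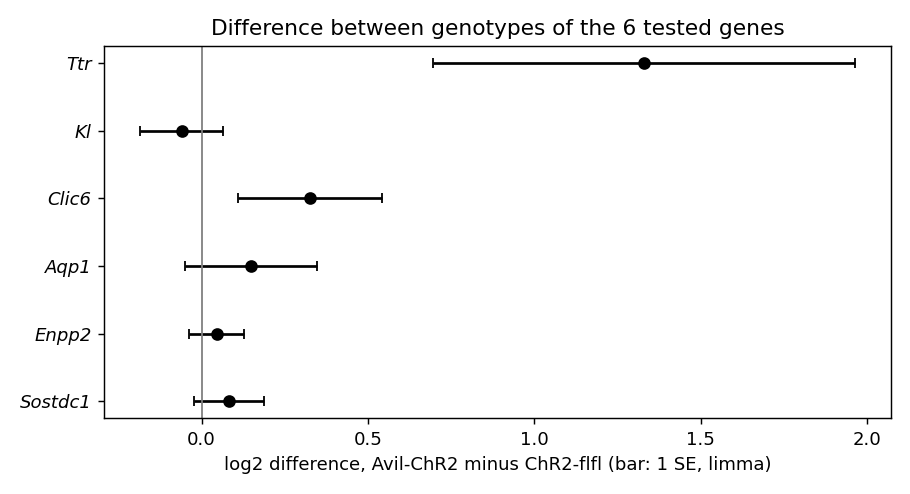
Log2 difference between Avil-ChR2 and ChR2-flfl pups for the 6 genes that passed the filter on low values, with 1 SE of limma on each side. Ttr is at 1.33 with the widest bar (SE 0.63), and the other genes lie between -0.06 and 0.33.

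Numbers of the pups form the runs 26 to 33 and 35 to 42, and each run holds 4 Avil-ChR2 and 4 ChR2-flfl pups. Enpp2 was lower in the first run, 84.4 ± 10.1 CPM, than in the second, 98.3 ± 6.68 CPM (SD, n = 8 each, exact permutation test, p = 0.0037, adjusted p = 0.060 over 16 tests of runs and sexes). The adjusted p was above 0.05 for each of the 16 tests, which took sex from the labels. Interaction terms of genotype with sex or with run gave no member an adjusted p under 0.05 in limma. The lowest unadjusted limma p among members was 0.091, for Clic6 with sex as the paper's supplement gives it. With the labelled sex it was 0.41. These sources differ in Avil-ChR2 replicate 4, the pup with the highest Clic6 (1.17 CPM). Sostdc1 had a log2 difference of -0.09 within pups 26 to 33 and of 0.25 within pups 35 to 42, where the groups did not overlap (exact permutation test, p = 0.029, the smallest possible). In that run its values were 1.84, 1.97, 2.09 and 2.187 CPM in ChR2-flfl and 2.192, 2.37, 2.53 and 2.53 CPM in Avil-ChR2 pups. The difference between the runs was 0.34 (SE 0.21, limma unadjusted p = 0.11, adjusted p = 1.00). For 4 against 4 pups, chance alone keeps the groups of a gene apart with a probability of 0.029. All members were looked at in both runs, and the share of all genes without overlap within a run is not given here.

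No common rise and fall of the members over the pups was detected. Of 28 pairs, 18 had a Pearson r above 0, the median r was 0.08 and the range ran from -0.65 to 0.65. No pair passed an adjusted p of 0.05 in a permutation test with 100000 resamples, by Pearson's r or by Spearman's rho, and 5 pairs had an unadjusted p under 0.05 for r. Otx2 had a negative r with Enpp2 (-0.65) and Aqp1 (-0.54), which was 0.05 and -0.17 without the 2 pups farthest from its median. One of those pups, ChR2-flfl replicate 1, held 5 of the 13 Otx2 reads and the lowest Enpp2 and Aqp1.

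Ttr, the most abundant of these RNAs in the epithelium, had its highest r with Folr1 (r = 0.60, permutation p = 0.015, adjusted p = 0.13, rho = 0.45, p = 0.079). Without the 2 pups farthest from the Ttr median it was 0.40, and it was 0.32 within ChR2-flfl and 0.79 within Avil-ChR2 pups. Folr1 had 26 reads in all, so that each of its points stands on 5 reads or fewer. The other correlations with Ttr were 0.42 for Aqp1, 0.41 for Kl, 0.26 for Clic6, 0.14 for Enpp2, -0.16 for Sostdc1 and -0.26 for Otx2. In Avil-ChR2 replicate 2, whose Ttr was several times that of any other pup, Folr1 stood at 0.103 CPM and Aqp1 at 3.97 CPM, the highest of all pups for Aqp1. In the same pup Kl (1.26 CPM), Clic6 (0.70 CPM) and Enpp2 (95.5 CPM) lay inside the range of the other pups. In the 3 pups with no or 1 Ttr read, Aqp1 ranged from 1.68 to 3.21 CPM, Clic6 from 0.374 to 0.744 CPM and Enpp2 from 93.2 to 101.3 CPM, so that these RNAs were present at ordinary levels where Ttr was near 0.

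Aqp1 and Enpp2 formed the pair with the highest correlation, r = 0.65 (permutation p = 0.0060, adjusted p = 0.13) and rho = 0.53 (p = 0.037). Without the 2 pups farthest from the Aqp1 median it was 0.70. It was 0.56 within ChR2-flfl and 0.76 within Avil-ChR2 pups, but 0.88 within pups 26 to 33 and 0.07 within pups 35 to 42, so that the relation did not hold in the second run. Clic6 and Aqp1 had an r of 0.58 (permutation p = 0.019, adjusted p = 0.13) and a rho of 0.59.

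**Figure D4:**
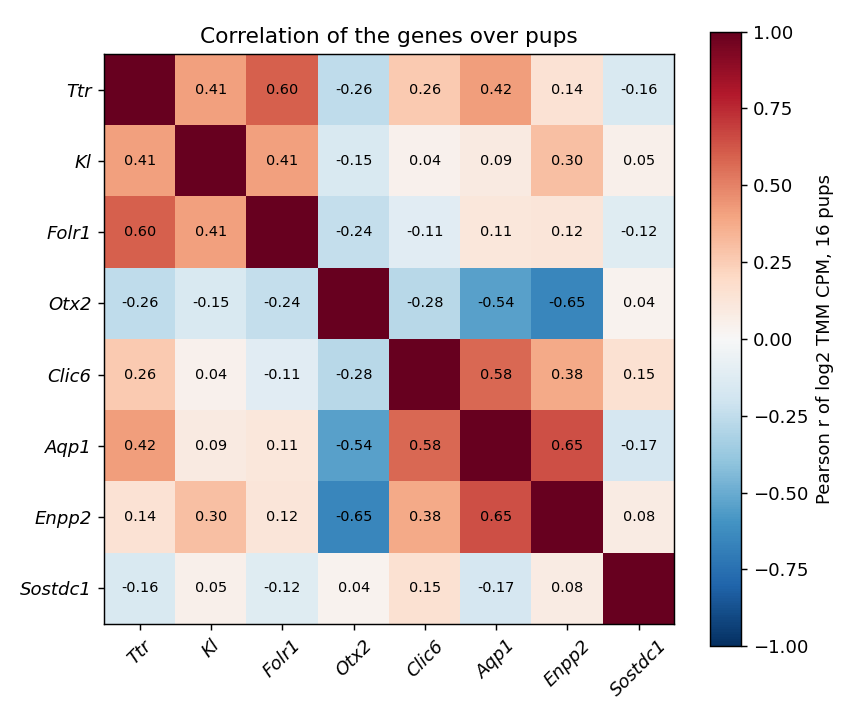
Pearson r of log2 TMM CPM over 16 pups for each of the 28 pairs of genes, blue for negative and red for positive values. The values run from -0.65 (Otx2 with Enpp2) to 0.65 (Aqp1 with Enpp2), and the row of Ttr holds values from -0.26 to 0.60.

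Of 40 further genes of the epithelium, 37 passed the filter. Over the 16 pups, 0 of these 37 had an r over 0.7 with Ttr, beside 0.146% of all genes tested. Within subsets of 8 pups it was 5 of 37 in pups 35 to 42, beside 4.60% of all genes tested, and 3 of 37 in Avil-ChR2 pups, beside 1.83%. It was 1 of 37 in pups 26 to 33, beside 2.04%, and 1 of 37 in ChR2-flfl pups, beside 2.19%. The share of the list was thus above that of all genes in pups 35 to 42 and in Avil-ChR2 pups, which was not tested. Genes of the list spanned a wide range. Low ones were Kcne2, a potassium channel subunit, with at most 0.392 CPM, the tight junction gene Cldn2 with at most 0.266 CPM and Tmem72 with at most 0.187 CPM. Others stood higher, such as Slc13a4 (3.77 to 17.7 CPM), Abca4 (5.77 to 8.45 CPM), Slc4a5 (1.86 to 3.13 CPM) and Prlr (0.901 to 1.92 CPM). Kcnj13 and Cox8b were listed at 0 in all pups, but Kcnj13 overlaps Gigyf2 (mean 89.3 CPM) and the table lists reads of overlapping genes under 1 entry, so that its 0 does not speak of its level. The summed level of the list, 1363 to 1618 CPM in Avil-ChR2 and 1395 to 1631 CPM in ChR2-flfl pups, came mainly from genes that many brain cells use, such as Tuba1c (810 to 907 CPM), a tubulin, and Igf2 (127 to 315 CPM), a growth factor also made by the meninges.

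By genotype, 0 of the 37 genes passed an adjusted p of 0.05 in limma. At an unadjusted p under 0.05, 2 genes were called, both lower in Avil-ChR2 pups, beside 3.46% of all genes tested in that direction. Wfdc2, a secreted protease inhibitor of epithelia, had 0.104, 0.228 and 0.323 CPM as lowest, median and highest level in ChR2-flfl and 0.021, 0.113 and 0.206 CPM in Avil-ChR2 pups. It was lower by a log2 difference of -1.15 (SE 0.37, limma adjusted p = 0.81). Krt18, a keratin of simple epithelia, had 0, 0.127 and 0.289 CPM in ChR2-flfl and 0, 0.041 and 0.062 CPM in Avil-ChR2 pups, a log2 difference of -1.22 (SE 0.43, adjusted p = 0.82). The groups overlapped for both genes, voom called only Wfdc2 at that threshold, and these differences have the opposite sign to that of Ttr. The median difference of the list was -0.01.

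The rule for genes most like Ttr took those with the highest r over the 16 pups among genes with a mean log2 CPM of at least 0. Among the 10 genes were Gm32310 (0.80), Fam43a (0.79), Fgfr3 (0.75), Fgfr1 (0.75), Gng5 (0.74), Lrp5 (0.74), Prickle3 (0.74), Gm15441 (0.74) and Cdc20b (0.74). None of the genes named is on the choroid plexus list. Fgfr3 and Fgfr1 belong to a list of klotho and FGF23 pathway genes and Lrp5 to one of Wnt and BMP signalling. Of these lists, 2 of 11 and 1 of 14 tested genes had an r over 0.7, beside 0.146% of all genes tested. With 14 of 16 Ttr values resting on fewer than 18 reads, these correlations are given as a description.

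Marker lists of the other cells and regions that a cortical sample could hold were set against each member as mean log2 CPM per pup, 19 lists and 6 members, 114 pairs. For Ttr, no list had an unadjusted p under 0.05, and the lowest p adjusted over the 19 lists was 0.55. The highest r was that with endothelial cells and pericytes (r = 0.50, permutation p = 0.050, rho = 0.42, p = 0.10), and it was 0.33 without the 2 pups farthest from the median of Ttr. The values were 0.38 for leptomeningeal fibroblasts, 0.30 for ependymal cells, which line the ventricles, and 0.25 for the other choroid plexus genes. Within genotypes the last of these was 0.78 in Avil-ChR2 (exact permutation p = 0.023) and -0.19 in ChR2-flfl pups (exact p = 0.65), and it was 0.006 without the 2 pups. Within pups 35 to 42, r was 0.81 with the endothelial (exact p = 0.013), 0.74 with the leptomeningeal (exact p = 0.032) and 0.93 with the retinoid and thyroid hormone list (exact p = 0.00079), compared with 0.45, 0.39 and -0.11 within pups 26 to 33. These p-values are unadjusted, and 7 of the 76 values of Ttr within a genotype or a run had one under 0.05. Differences between genotypes or runs in these correlations were not tested. The defining ependymal marker Foxj1 was at 2.40 to 3.88 CPM, whereas Tmem212 was read in 5 pups only and had at most 0.062 CPM. The summed ependymal level was 46.4 to 53.4 CPM in Avil-ChR2 and 49.5 to 54.1 CPM in ChR2-flfl pups. It came mainly from Spag6l (24.7 to 27.3 CPM), Cfap54 (6.57 to 9.34 CPM) and Dnah9 (5.39 to 8.47 CPM). Genes such as Ccdc153, Dynlrb2 and Mia had at most 0.082, 0.188 and 0.409 CPM, so the sum says little of them.

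Aqp1 followed the lists of meningeal and vascular cells closely. With leptomeningeal fibroblasts, the collagen-making cells of the pia and arachnoid, r was 0.85 (permutation p = 3e-05, p = 0.0017 adjusted over 114 pairs) and rho 0.85 (p = 6e-05). Without the 2 pups farthest from the Aqp1 median it was 0.85. It was 0.92 within ChR2-flfl, 0.89 within Avil-ChR2, 0.84 within pups 26 to 33 and 0.86 within pups 35 to 42. With endothelial cells and pericytes, r was 0.85 (permutation p = 1e-05, the smallest that these resamples can give, adjusted p = 0.0011) and rho 0.79 (p = 0.00039). That relation was 0.96 within pups 26 to 33 and 0.64 within pups 35 to 42. The summed level of 18 leptomeningeal genes ranged from 291 to 799 CPM in Avil-ChR2 and from 334 to 819 CPM in ChR2-flfl pups. Ptgds, which encodes prostaglandin D synthase, ranged from 43.1 to 368.1 CPM, Col1a1, a fibrillar collagen, from 39.2 to 72.3 CPM and Slc47a1, a transporter, from 0.621 to 5.33 CPM. All but 1 of the 18, Ogn, were read in each pup. Ogn was listed at 0 in all pups but overlaps Cenpp (mean 40.8 CPM), so that its 0 does not speak of its level. Aqp1 and these genes were high in the same pups, among them ChR2-flfl replicate 5 and Avil-ChR2 replicate 2, and low in replicate 1 of both groups.

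Genes closest to Aqp1, chosen after their values were seen, were Bgn (r = 0.93), Pmp22 (0.93), Sparc (0.92), Islr (0.92) and Cpz (0.91), of which Bgn and Sparc encode proteins of the extracellular matrix. Among genes with a mean log2 CPM of at least 0, 294 had an r over 0.7 with Aqp1, 1.94%, and 22 with Ttr, 0.145%. Aqp1 also followed the list of Wnt and BMP signalling genes (r = 0.81, permutation p = 0.00012, adjusted p = 0.0034), which holds Bmp4, Bmp5, Bmp6 and Bmp7.

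Enpp2 had a positive r with the same lists and a negative one with those of cortical projection neurons and of the striatum. Its r with the other neuronal lists was -0.33 for hippocampus and dentate gyrus, -0.48 for thalamus and habenula and 0.29 for hypothalamus, none of which passed. It had an r of 0.75 with endothelial cells and pericytes (permutation p = 0.00053, adjusted p = 0.011, rho = 0.61, p = 0.015) and of 0.70 with leptomeningeal fibroblasts (p = 0.0023 by permutation, adjusted p = 0.038, rho = 0.65, p = 0.0079). The second of these was 0.78 within pups 26 to 33 and 0.32 within pups 35 to 42, and it lost its call when any 1 of 9 pups was left out (ChR2-flfl replicates 1, 2, 4, 5 and 8 or Avil-ChR2 replicates 1, 6, 7 and 8, adjusted p = 0.053 to 0.14). The first lost it without ChR2-flfl replicate 1 (0.65, adjusted p = 0.081) or Avil-ChR2 replicate 8 (0.69, adjusted p = 0.071). With Wnt and BMP signalling genes, r was 0.68 (permutation p = 0.0034, adjusted p = 0.049, rho = 0.63, p = 0.011), a call that was lost without any 1 of 13 pups, all but ChR2-flfl replicate 7 and Avil-ChR2 replicates 4 and 5. Its r with cortical projection neurons was -0.85 (permutation p = 5e-05, adjusted p = 0.0019) and its rho -0.77 (p = 0.00096). It was -0.84 without the 2 pups farthest from the Enpp2 median, -0.87 within ChR2-flfl, -0.93 within Avil-ChR2, -0.74 within pups 26 to 33 and -0.87 within pups 35 to 42. With the list of striatal genes r was -0.75 (permutation p = 0.00058, adjusted p = 0.011, rho = -0.86, p = 8e-05), but -0.34 within pups 26 to 33 and -0.94 within pups 35 to 42. That call was lost without Avil-ChR2 replicate 1 (-0.69, adjusted p = 0.055) or replicate 8 (-0.68, adjusted p = 0.071). With oligodendrocytes, which make autotaxin, it was -0.59 (permutation p = 0.014, adjusted p = 0.14, rho = -0.73). The part of these cells in the level of Aqp1 or Enpp2 was not tested.

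**Figure D5:**
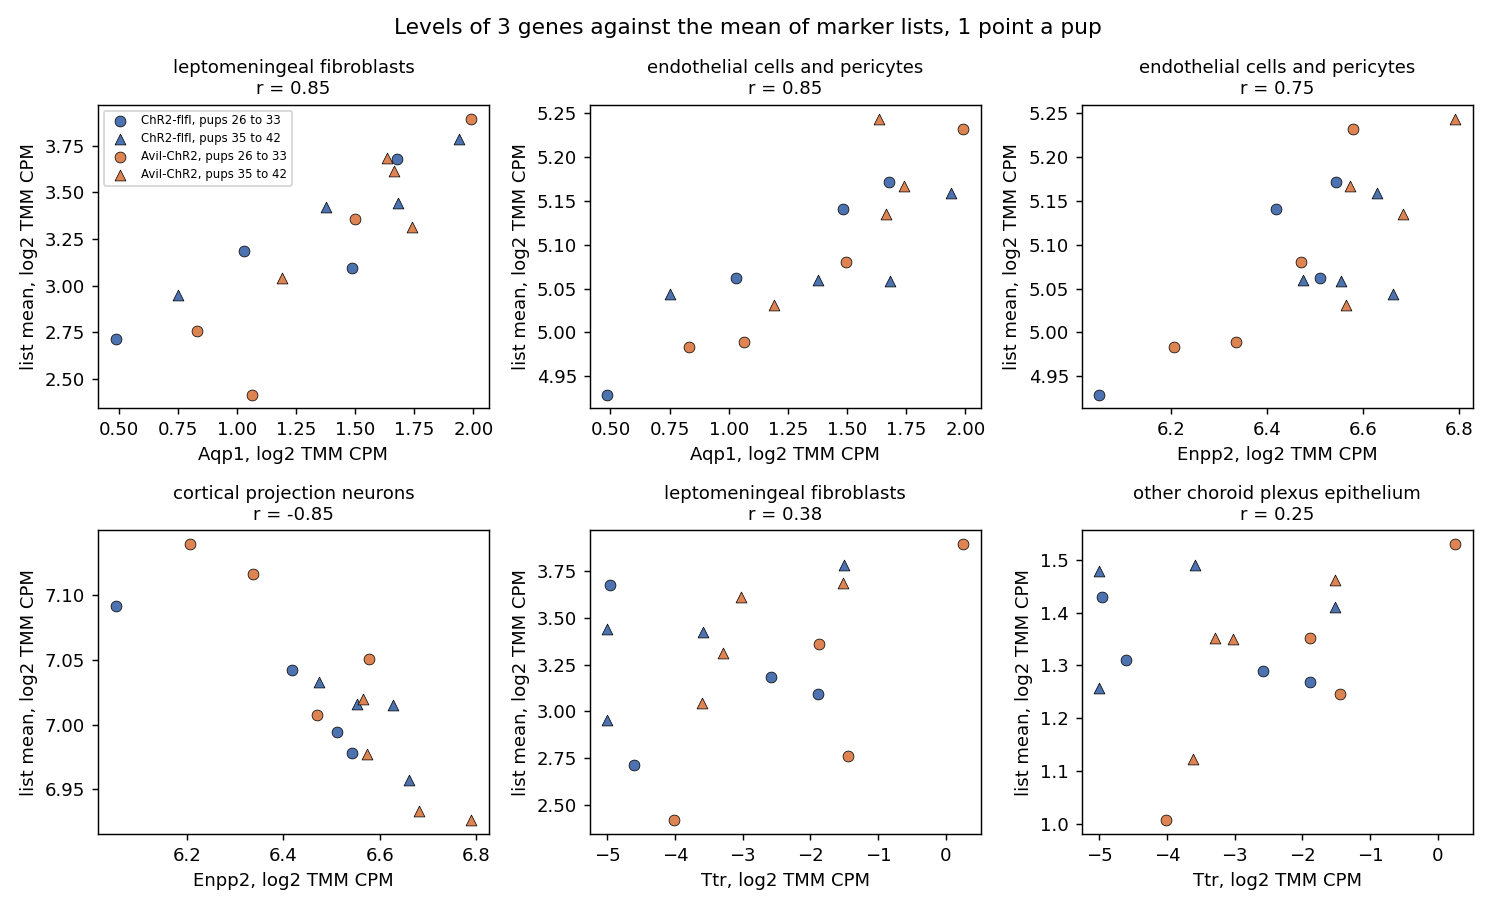
Mean log2 TMM CPM of marker lists against the log2 TMM CPM of Aqp1, Enpp2 or Ttr, 1 point a pup, coloured by genotype and shaped by run of pup numbers, each panel with its own axes. Aqp1 rises with the leptomeningeal and endothelial lists (r = 0.85 each), Enpp2 falls with the neuronal list (r = -0.85), and Ttr shows a wide scatter (r = 0.38 and 0.25).

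Over the 16 pups, Kl, Clic6 and Sostdc1 followed no list at an adjusted p under 0.05. Within Avil-ChR2 pups the r of Kl was 0.96 with Wnt and BMP signalling genes (exact permutation p = 0.00032), 0.89 with leptomeningeal fibroblasts (exact p = 0.0035), 0.88 with endothelial cells and pericytes (exact p = 0.0066) and 0.87 with the other choroid plexus genes (exact p = 0.0050). Within ChR2-flfl pups these were -0.52, -0.34, -0.06 and -0.46. Of the 19 lists, 8 had an unadjusted p under 0.05 with Kl in Avil-ChR2 and 0 in ChR2-flfl pups, and the difference between the genotypes was not tested. In Avil-ChR2 pups Kl had 48 to 64 reads, 1.16 ± 0.117 CPM (SD, n = 8). That spread was no larger than counting error, which is 13.3% of the mean over the 16 pups. Clic6 had an r of 0.58 with leptomeningeal fibroblasts (permutation p = 0.018, adjusted p = 0.16, rho = 0.54) and of 0.64 with Wnt and BMP signalling genes (permutation p = 0.0079, adjusted p = 0.10, rho = 0.63). Sostdc1 had a negative r with the other choroid plexus genes, -0.52 (permutation p = 0.042, adjusted p = 0.32), which was -0.26 without the 2 pups farthest from its median.

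Genes that work with the members were not called by genotype after adjustment. Their counts at an unadjusted p under 0.05 stand beside 5.41% of all genes tested in either direction, 1.95% higher and 3.46% lower in Avil-ChR2 pups. In the list of retinoid and thyroid hormone handling around Ttr, 1 of 16 genes had an unadjusted p under 0.05. This was Rbp4, the plasma retinol carrier that binds transthyretin, with 2.60, 3.26 and 4.01 CPM as lowest, median and highest level in ChR2-flfl and 3.44, 4.15 and 4.75 CPM in Avil-ChR2 pups. The groups overlapped, and the log2 difference was 0.30 (SE 0.09, limma adjusted p = 0.81, exact permutation p = 0.0057). In the klotho list, 0 of 11 tested genes had an unadjusted p under 0.05, with Fgfr1, a receptor that pairs with klotho, at 31.3 to 39.3 CPM and Fgf23, its ligand, at 0.330 to 0.810 CPM.

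In the folate list, 1 of 15 genes was called at an unadjusted p under 0.05, Ggh, a hydrolase of folate polyglutamates, which was lower in Avil-ChR2 pups by a log2 difference of -0.12 (SE 0.05, adjusted p = 0.85). Slc19a1 (20.1 to 24.0 CPM) and Slc46a1 (18.5 to 21.5 CPM), the other folate carriers, stood far above Folr1 in each pup without account of length. Of the genes of lysophosphatidic acid signalling around Enpp2, 0 of 10 tested were called at that threshold, and the receptor Lpar1 ranged from 9.54 to 14.3 CPM. Around Sostdc1, 2 of 14 Wnt and BMP genes were called and lower in Avil-ChR2 pups, the co-receptor Lrp6, to which Sostdc1 binds, by a log2 difference of -0.10 (SE 0.04) and the receptor Bmpr2 by -0.14 (SE 0.05), with limma adjusted p-values of 0.82 and 0.84.

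Among the 6 aquaporins tested besides Aqp1, Mip was called at an unadjusted p under 0.05, with 0.041 to 0.225 CPM and a log2 difference of 0.86 (SE 0.32, adjusted p = 0.83). Aqp4, the water channel of astrocyte endfeet, ranged from 30.8 to 144.0 CPM and had a log2 difference of 0.37 (SE 0.26). Of the chloride intracellular channels, 0 of 3 tested were called, and Clic4 had 37.6 to 47.6 CPM compared with at most 1.17 CPM of Clic6. In the list around Otx2, 0 of 4 tested genes were called. Otx1, its relative of the deep cortical layers, ranged from 7.06 to 10.9 CPM, whereas Crx was read in 9 pups and had at most 0.104 CPM. Acan, which encodes the perineuronal net protein aggrecan, ranged from 3.42 to 6.0 CPM.

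In the lists of other cells and regions, 4 of 103 tested genes (3.88%) had an unadjusted p under 0.05, beside 5.41% of all genes tested. They were Mcidas of the ependymal list (log2 difference 0.68, SE 0.24), Slc4a1 of the erythroid list (-0.94, SE 0.41), Tac2 of the thalamus and habenula list (0.45, SE 0.11) and Slc17a7 of the projection neurons (0.11, SE 0.05). None of the leptomeningeal, endothelial, oligodendrocyte, striatal, hippocampal or hypothalamic genes was called at that threshold, and 0 genes of any list passed an adjusted p of 0.05 in limma.

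With log2 Ttr as a covariate, limma called 1 gene by genotype at an adjusted p under 0.05, compared with 2 genes, Avil and Mars, without it. The number at an unadjusted p under 0.05 was 738 with Ttr and 1145 without. The difference of Aqp1 was then -0.010 and that of Clic6 0.27. Log2 Ttr was itself 1.33 higher in Avil-ChR2 pups and rested on a median of 5.5 reads a pup. It thus shares part of the genotype contrast, and what lowered the number of genes was not tested.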

How the data were processed

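RNAseq was done on the cortex of 16 P7 pups. According to the methods, the authors trimmed adapters, aligned reads to mm10 (GRCm38) with SeqMan NGen, counted them per gene in ArrayStar and normalized them by TMM with edgeR, whose version is not given in the sources used here. The deposited values are linear CPM with decimal commas, 1 column a pup and no filter, and were read as such. Whether counting used strand is not given in the sources used here, and reads of overlapping genes stand under 1 entry.

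Members and lists were chosen with earlier results of these data known. Reads were recovered from the CPM step of 1 read, and 100% of values up to 20000 reads were whole within 0.05. Values were log2 transformed, those missing or below -5 were set to -5, and 21183 genes with at least 12 of 16 pups above -5 were compared by limma 3.58.1 (R 4.3.3, intensity trend, Benjamini-Hochberg adjustment). edgeR was not run here, because the file's CPM could not be declared as counts, and limma's voom on the recovered reads took its place. Correlations used Python 3.11.15 with 100000 permutations, or all 40320 pairings for 8 pups. Transcript lengths are those of GENCODE M21. Genes were named by rule: the members, the 10 genes most like Ttr (1 of them is not reported here), and listed genes with the largest values or an unadjusted p under 0.05. Positions are those of the deposited table. The replicate numbers shared by the genotypes are serial numbers of different pups. Scripts were tested on simulated data. Libraries had no molecular identifiers, so intervals and floors cover counting error only.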

Additional observations from a re-analysis of the deposited data

Results flagged for a closer look

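In 4 of 16 groups, 1 gene in 1 genotype each, the highest or lowest pup stood apart from the other 7. Its gap was more than 0.526 of the group's range (Dixon's criterion). Chance meets it in about 1 in 20 groups of normally distributed values. That rate need not hold for the few reads of Ttr, Folr1 and Otx2. Ttr was at 1.19 CPM in Avil-ChR2 replicate 2, with the next pup at 0.368 CPM. Folr1 was at 0.104 CPM in ChR2-flfl replicate 4, with the next pup at 0.041 CPM, a gap of 3 reads. Otx2 was at 0.103 CPM in ChR2-flfl replicate 1, again with the next pup at 0.041 CPM. Enpp2 was lowest in the same pup, at 66.3 CPM, with the next at 85.5 CPM. No interaction of genotype with sex or run passed adjustment for a member in limma.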

How the results depend on the processing

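No member was called at an adjusted p under 0.05 under any of 30 alternatives, and the edgeR test planned on recovered reads was not run, with voom in its place. At an unadjusted p under 0.05 the count of members, 1 of 6, was 0 without a filter, on log2(CPM + 1), with missing values drawn from a normal distribution, with sex from either source as a covariate, and within either run. When each pup was left out, the count was 0 to 2. It was also 0 with a mean log2 of at least 0 and with log2 Ttr as a covariate. Ttr, the member called, was not part of those fits, so they cannot test its call. Of the other choroid plexus genes, 2 were called at that threshold, 1 by voom and 0 within pups 35 to 42. The count was also 0 with a mean log2 of at least 0, a fit for which both genes were too low.

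The count of genes at an adjusted p under 0.05, 2, was 3 with the run of pup numbers as a covariate, 1 with median centring, with the replicate block, with log2 Ttr as a covariate and within either run, and 1 to 2 without single pups. The replicate numbers did not pair the pups, as the correlation of same-numbered pups was -0.34 to 0.39 and 1 of 8 pups correlated best with its own number, and the block changed no call of a member. At an unadjusted p under 0.05, 1145 genes became 738 with log2 Ttr and 672 within pups 26 to 33. Differences that turned sign were small, namely Aqp1 (-0.010 with log2 Ttr), Sostdc1 (-0.089 within pups 26 to 33), Otx2 (0.098 within pups 35 to 42) and Enpp2 (-0.016 to 0.091 over single pups left out, the lowest without ChR2-flfl replicate 1).

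The count of member pairs, 0, was 1 (Aqp1 with Enpp2) without the 2 pups farthest from the Ttr median and 0 to 1 without single pups. Genes of the other choroid plexus list with an r over 0.7 with Ttr numbered 0, but 1 of 37 within pups 26 to 33, 5 within pups 35 to 42, 1 within ChR2-flfl and 3 within Avil-ChR2 pups, each of 8 pups, beside 2.04%, 4.60%, 2.19% and 1.83% of all genes tested. Of the lists, 1 passed with Ttr within pups 35 to 42, retinoid and thyroid hormone handling (adjusted over the 19 lists). The correlation of Ttr with Otx2 was 0.056 on log2(CPM + 1) and -0.31 to 0.032 without single pups, that with Enpp2 -0.053 to 0.30. That with Sostdc1 was 0.23 without the 2 pups, 0.51 within pups 35 to 42, 0.44 within ChR2-flfl pups and -0.25 to 0.32 without single pups, the highest without Avil-ChR2 replicate 2. The cause was not tested. At 3 reads, depth limits what can be said of Ttr, Folr1 and Otx2 to levels above about 0.06 CPM, or 0.0970 CPM in ChR2-flfl replicate 3.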
